A study of Mus musculus with 10 samples.

Results

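Cycling lymphatic endothelial cells (LECs) of mouse ear skin were selected on measured values, as LECs in which 7 genes of late S, G2 and M phase (Mki67, Top2a, Ccnb1, Ccnb2, Cdk1, Cdc20 and Prc1) together reached at least 500 CPM (counts of a gene scaled to a common total of gene reads per cell). A LEC was a sorted cell in which Prox1, Flt4 and Mmrn1 summed to at least 300 CPM and to more than the blood endothelial genes Flt1, Emcn and Podxl. Of 3248 cells that passed quality limits, 1641 were LECs and 164 of these were cycling. The mutant mice held 156 of the cycling cells among 1283 LECs, and the control mice held 8 among 358 LECs. The cells came from a full-length single-cell RNA sequencing study (Smart-Seq2) of LECs and blood endothelial cells (BECs) that were sorted by CD31 and Podoplanin from digested ear skin, with CD45, CD11b, Ter119 and dead cells gated out. Mutants were 5 mice of strain Pik3caH1047R;Cdh5-CreERT2, genotype Cre+, in which the oncogenic H1047R form of PI3Kα is expressed after Cre recombination in endothelial cells, both lymphatic and blood. Their ears received 4-hydroxytamoxifen (4-OHT) at 3 weeks of age and were sampled at 5 weeks. Control 1 was an untreated C57BL/6J mouse and control 2 was a Cre- mouse of the Pik3caH1047R;Cdh5-CreERT2 strain that received 4-OHT at 3 weeks, both sampled at 5 weeks. Recombination was not read out per cell here, so a cell of a mutant mouse need not carry the active allele.

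The cell cycle doubles the genome in S phase and divides the cell in M phase. Genes for DNA replication are switched on by E2F factors around the entry into S phase, and genes for mitosis are switched on later, in G2 and M phase, by the MuvB, B-MYB and FOXM1 complexes that bind the CHR element of their promoters. PI3K activates AKT, which favours growth and glucose use and keeps FOXO factors out of the nucleus. In skin, lymphatic capillaries take up fluid, collecting vessels with valves carry it away. Ptx3 encodes pentraxin 3, a secreted pattern recognition protein, and gives its name to a capillary class among these LECs.

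The promoters below show examples of the gene groups used to find and describe the cycling cells, with the motifs searched in them. Each is the 200 bases before the start of the gene in the RefSeq annotation of GRCm38.p6, written 5′ to 3′ on the strand of the gene. For Ccnb2 and Mki67, which are in the rule, and Ube2c, a mitotic gene outside the rule, capitals mark CHR matches (TTTGAA or TTCGAA) and CCAAT matches in either orientation. For Mcm5, a replication helicase subunit, they mark the E2F-type matches, and for Txnip, an inhibitor of glucose uptake that FOXO factors are known to induce, the FOXO match GTAAACA.
Ccnb2, chr9:70421555-70421754, minus strand: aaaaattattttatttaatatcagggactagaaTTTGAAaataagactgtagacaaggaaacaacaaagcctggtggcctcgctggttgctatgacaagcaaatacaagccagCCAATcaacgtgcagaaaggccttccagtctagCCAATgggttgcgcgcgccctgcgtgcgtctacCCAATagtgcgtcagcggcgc
Mki67, chr7:135716380-135716579, minus strand: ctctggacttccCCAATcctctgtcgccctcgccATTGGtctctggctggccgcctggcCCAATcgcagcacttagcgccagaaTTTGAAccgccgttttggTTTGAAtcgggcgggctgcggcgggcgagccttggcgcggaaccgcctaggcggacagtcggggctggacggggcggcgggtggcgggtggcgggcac
Ube2c, chr2:164769729-164769928, plus strand: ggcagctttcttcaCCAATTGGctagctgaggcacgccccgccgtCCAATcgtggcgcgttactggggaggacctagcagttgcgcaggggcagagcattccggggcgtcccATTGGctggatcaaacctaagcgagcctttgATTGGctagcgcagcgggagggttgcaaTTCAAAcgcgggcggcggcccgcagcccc
Mcm5, chr8:75109309-75109508, plus strand: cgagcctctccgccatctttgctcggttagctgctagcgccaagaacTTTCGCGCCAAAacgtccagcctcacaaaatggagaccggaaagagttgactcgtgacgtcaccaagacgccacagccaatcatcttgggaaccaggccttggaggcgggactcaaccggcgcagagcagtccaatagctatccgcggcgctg
Txnip, chr3:96557757-96557956, plus strand: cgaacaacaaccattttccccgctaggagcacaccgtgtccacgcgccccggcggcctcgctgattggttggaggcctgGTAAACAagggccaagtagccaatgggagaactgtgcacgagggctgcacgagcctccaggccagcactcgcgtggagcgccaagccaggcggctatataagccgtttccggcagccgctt

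In windows from 250 bases before to 50 after the start, on both strands, TTTGAA or TTCGAA stood in 86 of 132 G2 and M phase promoters (65.2%), in 17 of 80 S phase promoters (21.3%) and in 21.7% of all 27025 genes with a promoter. It stood in 6 of the 7 genes of the rule. CCAAT was in 68.2% of the G2 and M promoters, in 62.5% of the S phase promoters, in 61.5% of the promoters of the list of FOXO targets and PI3K feedback genes and in 41.1% of all. An E2F-type sequence (TTTCGCGC, TTTGGCGC, TTCCCGCC or TTTCCCGC, of which the first 2 can overlap each other's reverse strand, as in Mcm5) stood in 39 of 80 S phase promoters (48.8%), in 8.33% of the G2 and M promoters and in 4.0% of all. GTAAACA was in 6 of 26 promoters of the list of FOXO targets and PI3K feedback genes (23.1%) and in 4.05% of all. Such matches describe the letters in these windows only. Of the marker genes Mki67, Ccnb2, Racgap1, Tpx2 and Birc5, the promoters of Mki67, Ccnb2 and Racgap1 held both CHR and CCAAT letters, that of Birc5 held none of the motifs searched, and Tpx2 had no entry.

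The 7 mutant plates and 2 control plates analysed held 384 wells each, of which 332 to 375 were kept. A plate held 99738886 to 151102969 reads, and the cycling cells of each mutant mouse, summed, held 8029936 to 28933834 reads against 46644445 to 165419376 in the non-cycling LECs. Cells of mutants 3 and 5 came from a pair of plates each, and plate and mouse cannot be told apart for the others. Intervals on shares of cells below are Wilson 95% intervals and cover counting error only.

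The rule measure was continuous, with no gap at the limit. The cycling cells nearest to it stood at 511.5, 515.6, 520.4, 529.1 and 529.8 CPM, and the non-cycling cells nearest to it at 498.1, 496.0, 486.8, 484.0 and 483.6 CPM. Between 400 and 500 CPM there were 19 LECs, and between 500 and 600 CPM there were 13. Most cycling cells lay far above the limit, with a median of 2341 CPM in the mutants (quartiles 1054 and 4148, highest 11130) and 120 of 156 at 1000 CPM or more. Non-cycling mutant LECs had a median of 11.5 CPM, and 179 mutant LECs had none of the 7 genes. The 8 control cells were fewer and nearer the limit, with 3 of them at 1000 CPM or more.

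Cycling LECs were more frequent in every mutant mouse than in either control. They made up 16.3% of LECs in mutant 1 (30 of 184, interval 11.7 to 22.3%), 14.97% in mutant 2 (28 of 187), 9.09% in mutant 3 (33 of 363), 9.34% in mutant 4 (17 of 182) and 13.1% in mutant 5 (48 of 367). In the controls the share was 2.19% (4 of 183, interval 0.853 to 5.48%) and 2.29% (4 of 175, interval 0.892 to 5.73%). The groups did not overlap, the means being 12.6% ± 3.26 (SD, n = 5) and 2.24% (n = 2), and the difference was 10.3 percentage points (exact two-sided permutation test over mice, p = 0.0952, the lowest p that 5 against 2 mice allow). Blood endothelial cells past the same limit were 4.92, 8.70, 5.15, 1.72 and 5.94% of BECs in mutants 1 to 5 and 1.26 and 3.19% in the controls, so that in BECs the groups overlapped (difference 3.07 points, exact permutation p = 0.190). Within each of the 5 mutant mice the share was higher in LECs than in BECs, by 7.27 points on average (exact sign-flip test over 5 mice, p = 0.0625, the lowest that 5 pairs allow).

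**Figure D1:**
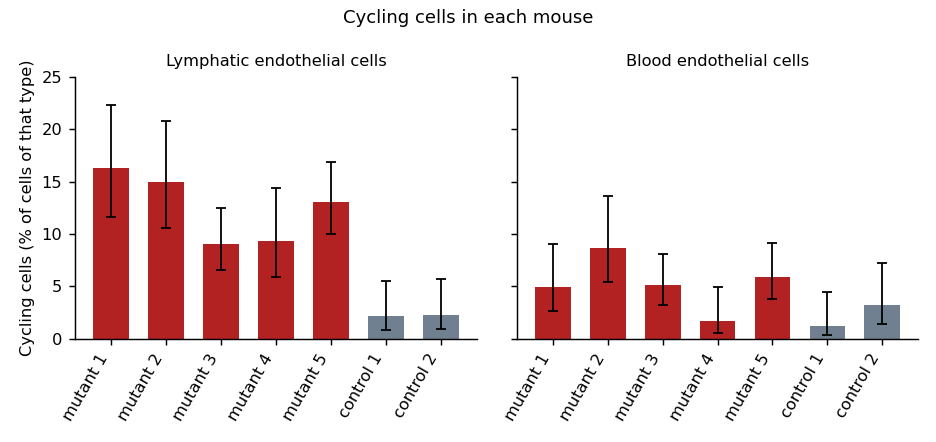
Share of LECs and of BECs in which the 7 cell cycle genes summed to at least 500 CPM, in percent of cells, for each mutant and control mouse, with Wilson 95% intervals as bars. The 5 mutant values for LECs, 9.09 to 16.3%, lie above both control values, while the mutant and control values for BECs overlap.

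The genes that mark these cells chose them or move with the genes that did, so their levels are given as a description with no test. In mutants 1 to 5, Mki67, whose protein coats mitotic chromosomes, stood at 765, 748, 531, 589 and 504 CPM in the summed cycling LECs and at 7.2, 10.5, 4.51, 5.65 and 8.05 CPM in the non-cycling LECs. Ccnb2, a mitotic cyclin, stood at 670.4, 650, 615, 609 and 645 CPM against 13.5, 10.6, 9.96, 7.44 and 13.2 CPM. In every mouse the cycling sum was far above the non-cycling sum for both genes, with little spread among mice. Racgap1, which works at the cleavage furrow, was at 642 ± 87.2 against 39.1 ± 10.2 CPM (mean ± SD, n = 5), Tpx2, a spindle assembly factor, at 399.5 ± 58.4 against 5.42 ± 1.72 CPM, and Birc5, a subunit of the chromosomal passenger complex, at 349.8 ± 40.3 against 4.04 ± 1.79 CPM. By cells, a Mki67 read was found in 91.0% of the cycling and 38.4% of the non-cycling mutant LECs and in 28.2% of non-cycling BECs. Racgap1 differed from the other markers in that nearly all cells held a read of it, 99.4% of the cycling and 95.9% of the non-cycling LECs, so that its level and not its detection set the cells apart. The cells thus carried the label's markers.

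Both S phase and mitotic genes were raised. Of 100 listed S phase genes, 82 were higher in cycling than in non-cycling LECs in all 5 mice, and of 159 G2 and M phase genes with reads, other than the 7 of the rule, 150 were higher and 2 lower in all 5. Among replication genes, Mcm5 was at 266 ± 61.5 against 35.7 ± 11.4 CPM, Rrm2, the regulated subunit of ribonucleotide reductase, at 313 ± 74.7 against 9.89 ± 3.37 CPM, and Tk1, thymidine kinase, at 254 ± 44.5 against 5.9 ± 1.84 CPM. Ccna2, the cyclin of S and G2 phase, was at 681 ± 130 against 20.1 ± 2.11 CPM. Abundant genes of the spindle and of nuclear transport that resting cells also use differed less, as Tubb5 at 1955 against 1033 CPM and Ran at 653 against 259 CPM. Replication-dependent histones, whose messages mostly lack the poly(A) tail that the assay primes on, were higher in all 5 mice for 37 of 61 genes with reads.

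To place single cells in the cycle, every cell was thinned to 50000 reads and the S and the G2 and M lists were summed without the 7 rule genes, with high set as above the 95th percentile of the non-cycling mutant LECs (4334 CPM for S, 7414 CPM for G2 and M). Of the 156 cycling cells 70 were high for both lists, 66 for G2 and M only, 2 for S only and 18 for neither. The corresponding numbers among the 1127 non-cycling cells were 15, 42, 42 and 1028. The limits were set on the non-cycling cells, so that about 5% of these lie above each by construction. Mean S phase levels of the cycling cells were 7955, 7609, 7502, 7742 and 4812 CPM in mutants 1 to 5, and mean G2 and M levels were 24260, 26240, 23890, 28230 and 23430 CPM. Mutant 5 had the lowest S phase level. Of its 48 cycling cells 23 were high for G2 and M only, as were 17 of the 33 of mutant 3. Of the 8 control cycling cells 1 was high for both lists, 4 for G2 and M only and 3 for neither.

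**Figure D2:**
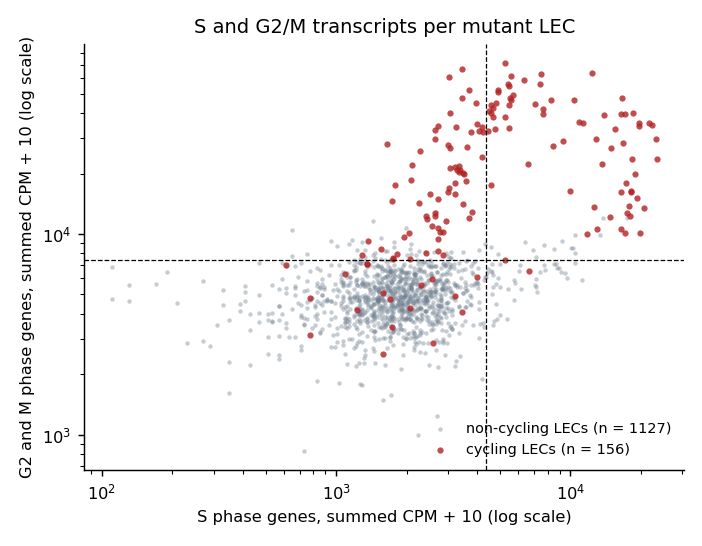
Summed S phase genes (horizontal axis) against summed G2 and M phase genes (vertical axis) in each mutant LEC, in CPM + 10 on log axes after thinning to 50000 reads and without the 7 rule genes, with dashed lines at 4334 and 7414 CPM. Most cycling cells lie above the horizontal line, 70 of 156 lie past both lines, and 1028 of 1127 non-cycling cells lie below both.

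To ask which kind of LEC the cycling cells resembled, non-cycling mutant LECs were clustered without the genes of the rules and cell cycle lists. The list of G1 cyclins, their kinases and inhibitors was not left out, nor were cell cycle genes that the lists lack. Clusters were called valve-, capillary-, Ptx3 capillary- or intermediate-like from the study's marker genes. Each mutant LEC was placed by a vote of its 15 nearest non-cycling neighbours other than itself. The non-cycling cells included 164 mutant LECs at 100 to 500 CPM of the 7 rule genes, and the part of cell cycle signal in the placement was not tested. Cycling LECs were placed mostly with the Ptx3 capillary-like cells. In mutants 1 to 5 the Ptx3 capillary-like share of cycling LECs was 53.3% (16 of 30), 57.1% (16 of 28), 78.8% (26 of 33), 76.5% (13 of 17) and 91.7% (44 of 48). Among non-cycling LECs of the same mice it was 24.0, 27.0, 27.6, 34.5 and 41.7%. The cycling share was higher in 5 of 5 mice, and the lowest cycling value stood above the highest non-cycling value, with means of 71.5% ± 16.0 and 31.0% ± 7.12 and a difference of 40.5 points ± 10.5 (SD, n = 5 mice, exact sign-flip p = 0.0625, the lowest possible). Of the other kinds, valve-like cells were 0.667% of cycling and 4.53% of non-cycling LECs on average (exact sign-flip p = 0.0625), 1 of 156 cells against 48 of 1127. Capillary-like cells were 7.58% against 13.4% and intermediate-like cells 8.63% against 14.1% (both exact p = 0.188), and cells of unnamed clusters were 11.6% against 37.1% (exact p = 0.0625). No cluster was called collecting vessel-like. The cluster that raised most of those markers, 5 of 10, raised as many valve markers and stayed unnamed. Fewer than 50% of the votes went to the winning cluster for 19 of 156 cycling and 112 of 1127 non-cycling cells. The share of votes for the winning class, which can pool clusters, was not computed.

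The named clusters were not alike in their share of cycling cells, which is described here with no test since the clusters were compared after their values were seen. The cluster led by Cd34, Adam15 and Npnt, with Ccnd1 among its leading genes, held the highest share among the clusters with over 10 cells, 59 of 163 placed cells (36.2%). It was 53.3, 45.8, 39.5, 28 and 29.5% in mutants 1 to 5. The larger Ptx3 capillary-like cluster, led by Npnt and Ptx3, held 46 of 271 (16.97%), with 20.6, 13.8, 13.7, 14.3 and 20.4% in the mice. The former was higher in all 5 mice, by 22.7 points ± 10.8. Cells of the former had the most reads, a median of 503300 against 413100 in the latter and 175500 to 390700 in the clusters that were not Ptx3 capillary-like, and the part of read depth in the placement was not tested. A smaller Ptx3 capillary-like cluster led by Nts held 10 of 42 (23.8%). By contrast 7 of 269 cells (2.60%) were cycling in an unnamed cluster led by Fgl2 that carried valve, collecting vessel and capillary markers. The levels of the non-cycling cells themselves differed between these clusters. Ccnd1, the D-type cyclin that couples growth signals to the G1 phase, was at 1062 ± 214 CPM in the non-cycling cells of the Cd34-led cluster, 558 ± 99.0 CPM in the Npnt-led cluster and 145 ± 38.2 CPM in the Fgl2-led cluster (mean ± SD, n = 5 mice). Mest, an imprinted gene of unsettled enzymatic function, followed the same order, at 597 ± 163, 253 ± 40.7 and 65.01 ± 25.3 CPM. These clusters are examples, and not all others kept an order by share of cycling cells. A capillary-like cluster led by Tgfbi, with 12 of 157 cells cycling (7.64%), had Ccnd1 at 452 ± 116 and Mest at 243 ± 138 CPM. The Nts-led cluster had Ccnd1 at 430 ± 132 and Mest at 373 ± 186 CPM. The remaining clusters are not given here. Ptx3 itself was higher in the Npnt-led cluster, 821 ± 126 CPM, than in the Cd34-led cluster, 548 ± 166 CPM.

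**Figure D3:**
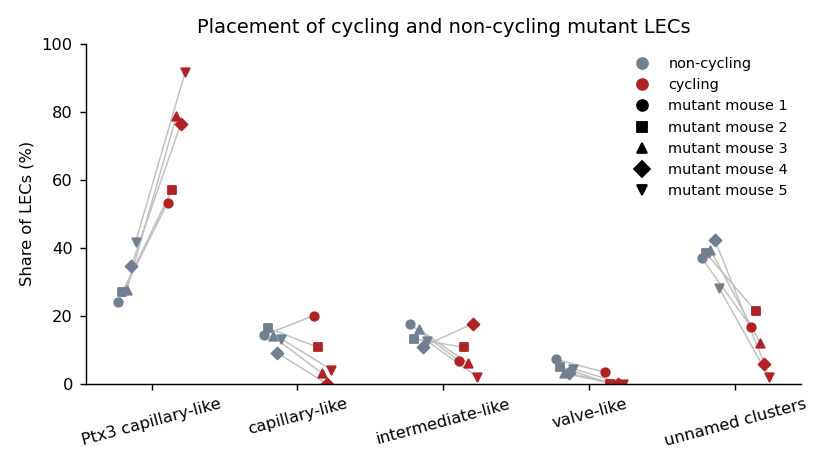
Percent of cycling and of non-cycling LECs placed in each LEC class, with a point for each of the 5 mutant mice joined between states. The Ptx3 capillary-like share was higher in the cycling cells of all 5 mice, 53.3 to 91.7% against 24.0 to 41.7%, and the valve-like share was 0 in the cycling cells of 4 mice.

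The Ptx3 gene alone, read without clusters, gave a smaller difference in the same direction. Over 1 read of Ptx3 in 50000 was found in 66.7, 57.1, 63.6, 58.8 and 68.8% of the cycling LECs of mutants 1 to 5 and in 37.0, 32.1, 42.4, 43.0 and 51.4% of the non-cycling LECs. The share was higher in cycling cells in 5 of 5 mice, by 21.8 points (exact sign-flip p = 0.0625). In mutant BECs the same measure was 3.92% (1174 cells, median 256823.5 reads against 348667 in LECs), well under all the LEC values. Over the subtype marker genes, the profile of the cycling cells relative to the average LEC correlated best with that of the Ptx3 capillary-like cells, r = 0.791, 0.724, 0.774, 0.515 and 0.861 in mutants 1 to 5 over 45 genes (a description, across genes that share cells and libraries). The medians for the other classes were below 0, at -0.104 for capillary-, -0.202 for intermediate- and -0.411 for valve-like cells.

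Cycling LECs held more RNA relative to the added spike-in molecules and a wider range of genes. Reads of mouse genes per spike-in read had medians of 628, 896, 766, 706 and 489 in the cycling cells of mutants 1 to 5 and 323, 464, 395, 271 and 291 in the non-cycling cells. Every mouse was higher in the cycling state, with no overlap between the states, by a mean of 1.00 ± 0.23 on the log2 scale or 2.00-fold (n = 5, exact sign-flip p = 0.0625). Genes with a read, after thinning each cell to 50000 reads, had medians of 4880, 4246, 4848, 5254 and 4769.5 in cycling and 3837, 3256, 3760.5, 3590 and 4063 in non-cycling cells, a difference of 1098 ± 349 (exact sign-flip p = 0.0625). Against Ptx3 capillary-like non-cycling cells alone, these differences were 0.39 on the log2 scale and 421 genes, so the class of the reference cells moved them by over 1.5 times. The mitochondrial share of reads was low in both states, with medians of 0.783 to 1.28% in cycling and 0.987 to 1.47% in non-cycling cells. The genes that define LECs in the rule (Prox1, Flt4 and Mmrn1) took a lower part of the reads in cycling cells, with medians of 2135 to 3558 CPM against 3681 to 5446 CPM, and so did the BEC genes of the rule, with 216 to 355 CPM against 430 to 518 CPM. CPM values are shares of a cell's reads. With 2.00-fold more reads per spike-in read in cycling cells, a gene lower by 1.00 in log2 CPM had about as many reads per spike-in read in both states.

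**Figure D4:**
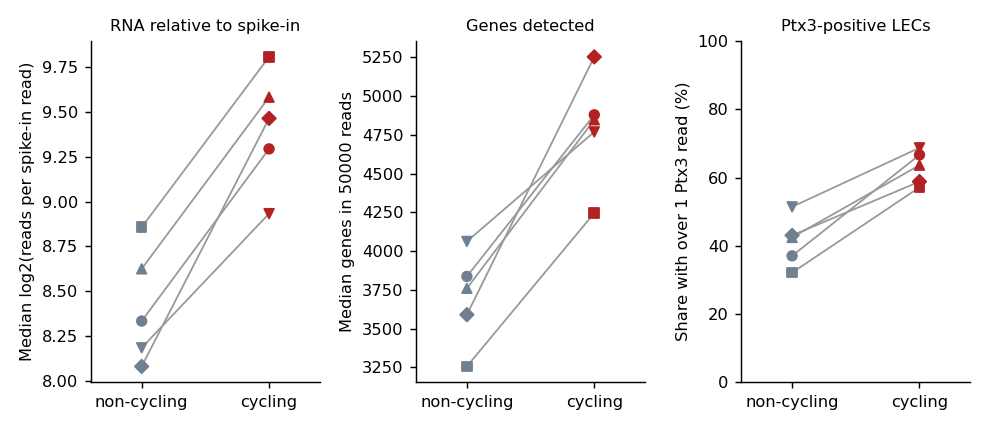
Median endogenous reads per spike-in read (as log2), median genes detected in 50000 reads and percent of Ptx3-positive cells in cycling and non-cycling LECs, with a point for each of the 5 mutant mice joined between states. All 3 measures were higher in the cycling cells of all 5 mice, with the ratio, before taking logs, at 489 to 896 against 271 to 464.

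Cells of each state were then summed within each mouse and compared by edgeR's quasi-likelihood test with the mouse as a block, adjusted by the Benjamini-Hochberg method over all tested genes. Differences are log2 fold changes of cycling over non-cycling with their standard errors, and the call threshold was 0.05 for the adjusted p. The 13 genes of the rules were not tested. Of 15606 genes 1861 (11.9%) were called, 1060 higher (6.79%) and 801 lower (5.13%). Genes on lists of cell cycle genes made up 303 of the higher genes and none of the lower genes, of 443 such genes tested, which restates how the cells were chosen. Outside those lists 757 of 15163 genes were higher (4.99%) and 801 lower (5.28%), together 10.3%. The lists do not hold every cell cycle gene, since Prr11, Arhgap19 and Ankle1, described below, stand outside them. Part of the 757 can therefore restate how the cells were chosen as well. The median log2 difference over all tested genes was -0.13, and values below are not shifted for it or for the spike-in ratio given above. A fall over all LECs that is smaller than that ratio is a lower share of reads, not fewer reads per spike-in read. DESeq2 called 4025 genes on the same sums, 1856 higher and 2169 lower. In the 3 mice with enough LECs that held under 50 CPM of the BEC genes of the rule, 15 genes were called, all higher. Among the genes given below that were called over all LECs, Ddit4, Tnfaip3 and Vcl changed sign there. Of the 95 named genes called here, 63 stayed called with any 1 mouse left out. Among the genes given below with values, the calls of Ccnd2, Cdkn1c, Dck, Dtymk, Sqle, Acly, Ddit4, Arhgap19, Mrc1, Vcl, Tnfaip3, Adam8, Icam1, Ackr4, Angpt2 and Ncam1 ended without at least 1 of the mice.

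The genes outside the lists with the largest changes were named by a rule of size. Prr11, which acts in S to G2 progression, was at 38.5, 51.7, 37.0, 41.2 and 27.0 CPM in cycling cells of mutants 1 to 5 and at 1.79, 1.27, 0.466, 0.604 and 1.18 CPM in non-cycling cells, a log2 difference of 5.32 ± 0.47 (adjusted p = 0.000521). A Prr11 read was present in 86 of the 156 cycling and 135 of the 1127 non-cycling cells, and the groups did not overlap. Lockd, a non-coding RNA next to the CDK inhibitor gene Cdkn1b, rose by 4.32 ± 0.31 (adjusted p = 0.000217), from 2.2 to 44.8 CPM. Neurl1b, an E3 ubiquitin ligase that acts on Notch ligands, rose by 4.09 ± 0.67 (adjusted p = 0.00838), from 3.96 to 59.0 CPM. Arhgap19, a RhoA inhibitor of cytokinesis, rose by 4.06 ± 0.82. Ankle1, a nuclease of the midbody, and BC030867 had higher fitted values, 6.91 and 8.44, but against non-cycling levels of 0.364 and 0.144 CPM, where the fitted size depends on the count added before taking logs. Efcab11, Lrr1, Tube1 and Pask completed the 10 largest rises. Among the largest falls were Ifit1, an interferon-induced gene, at 0.43 against 23.8 CPM, and Comp, a matrix protein, at 8.07 against 138 CPM. Pik3ip1, a membrane inhibitor of PI3K, was at 4.08, 1.6, 0.301, 0.252 and 0.588 CPM in cycling and 41.9, 30.1, 19.4, 20.8 and 16.2 CPM in non-cycling cells. Its groups did not overlap, and the difference was -4.81 ± 0.59 (adjusted p = 0.00249). Klrb1f, Fibin, G0s2, Cacna1e, Iigp1 and Rab38 were also among them.

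Biosynthetic genes outside the cell cycle lists were higher in part. Over all tested genes 6.79% were higher and 5.13% lower, the shares to set beside the list counts here and below. Of 27 tested genes of amino acid supply and the ATF4 response, 6 rose and 2 fell (median log2 0.13). Psat1, which makes phosphoserine on the way to serine, rose in every mouse. It was at 240.5, 334, 312, 179.7 and 181 CPM in cycling and 60.9, 91.2, 61.6, 60.3 and 64.4 CPM in non-cycling cells, with no overlap and a difference of 1.85 ± 0.14 (adjusted p = 0.000321). Slc7a5, the light chain of the LAT1 transporter of large neutral amino acids, was at 17.9, 30.9, 19.6, 34.8 and 16.8 against 3.19, 3.39, 1.76, 2.83 and 3.55 CPM, a difference of 3.00 ± 0.41 (adjusted p = 0.00397), also with no overlap, and had a read in 59 of the 156 cycling and 95 of the 1127 non-cycling cells. Slc1a5, a glutamine transporter, rose by 1.30 ± 0.16, and the alanyl-tRNA synthetase Aars by 0.69 ± 0.11. In the other direction Trib3 and Ddit4, stress genes of the same list of which the first restrains AKT and the second mTORC1, fell, with differences of -0.85 ± 0.14 and -0.90 ± 0.15. Falls of 2 of 27 genes were near the share over all tested genes and are no result about the list.

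Of 30 tested genes of nucleotide and folate-linked synthesis, 9 rose and 1 fell (median 0.53), among them Mthfd2, a mitochondrial folate enzyme (1.75 ± 0.31), Dck, deoxycytidine kinase (1.36 ± 0.27), and Dtymk, thymidylate kinase (1.18 ± 0.23). Glycolytic enzymes were higher for 8 of 21 genes and lower for none (median 0.30), as Pkm (0.87 ± 0.10), Pgk1 (0.87 ± 0.10) and Pgam1 (0.72 ± 0.07). Of 32 sterol and fatty acid genes 7 rose and 1 fell (median 0.62), with the sterol-regulated genes Fdps (1.16 ± 0.19) and Sqle (1.38 ± 0.28) higher and Acly, which makes cytosolic acetyl-CoA, lower (-0.45 ± 0.09). Chaperones had the highest called share of these lists, 10 of 25 higher and none lower (median 0.39), with Hsp90aa1 at 323 ± 38.1 against 151 ± 15.8 CPM (1.09 ± 0.11, adjusted p = 0.00114) and the chaperonin subunits Tcp1 (0.86 ± 0.09), Cct5 (0.60 ± 0.07) and Cct8 (0.58 ± 0.07). Ribosome biogenesis and MYC targets were higher for 9 of 54 (median 0.37), as Ncl, nucleolin (0.66 ± 0.07), and Nhp2 (1.01 ± 0.14). By comparison 9 of 58 oxidative phosphorylation genes (median 0.30) and 2 of 76 cytosolic ribosomal proteins (median 0.14) were higher, and none of either list was lower. None of 7 pentose phosphate genes was called (median 0.11). Over all tested genes 6.79% were higher and 5.13% lower. The 1 fall each in the nucleotide and sterol lists and the 2 rises of ribosomal proteins were under these shares. They are no result about those lists.

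Of 28 tested genes of the FOXO and PI3K feedback list none rose and 7 fell, beside 5.13% lower over all tested genes. The list median was -0.92 against -0.13 over all genes. Txnip, whose promoter with the GTAAACA match is printed above, was at 1060, 1130, 1036, 849.6 and 843 CPM in cycling and 1810, 2183, 1939, 1224 and 1329 CPM in non-cycling cells, a difference of -0.76 ± 0.07 (adjusted p = 0.000712) with each mouse lower in the cycling state. Sesn1, a brake on mTORC1, was at 51.4 ± 15.9 against 167 ± 42.0 CPM (-1.72 ± 0.21, adjusted p = 0.00269), and Btg1, an antiproliferative cofactor of mRNA decay, at 101 ± 20.9 against 219.8 ± 47.9 CPM (-1.11 ± 0.15, adjusted p = 0.00359). Pik3ip1, described above, belongs to this list. Of these genes Txnip and Btg1 differed by about the size of the spike-in ratio or less, and Sesn1 and Pik3ip1 by more.

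Among 11 tested G1 cyclins, their kinases and inhibitors none rose and 3 fell, beside 5.13% lower over all tested genes. The inhibitor Cdkn1c (p57) was at 2.19 against 19.6 CPM (-4.22 ± 0.96, adjusted p = 0.0304), and Cdkn2b (p15) at 0.0966 against 3.47 CPM. A Cdkn2b read was found in 9 of the 156 cycling and 49 of the 1127 non-cycling cells, so that few cells carried its level. Ccnd2, a D-type cyclin, was at 164, 188, 125, 156 and 108 CPM in cycling and 256, 190.3, 286, 250.1 and 270.5 CPM in non-cycling LECs (-0.78 ± 0.19, adjusted p = 0.0376). In mutant 2 its levels were nearly equal in both states, and in the other 4 mice it was lower in cycling cells.

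Marker genes of the LEC classes, many of which the clustering had used, were read in the same fit. Of the 10 Ptx3 capillary markers 3 were higher and none lower (median 0.27), beside 6.79% higher over all tested genes. Mest was at 522, 653, 421, 309 and 568 against 164, 165, 155, 239 and 314 CPM (1.27 ± 0.23, adjusted p = 0.0119), and Mrc1, the mannose receptor, at 118, 194, 195, 157 and 166 against 79.7, 68.2, 64.6, 105 and 40.3 CPM (1.26 ± 0.24, adjusted p = 0.0155). Aqp1, a water channel, was at 593, 979.7, 765, 678 and 638 against 419, 451, 441, 509 and 482 CPM (0.65 ± 0.11, adjusted p = 0.0113), higher in all 5 mice. Ptx3 did not pass the test in the summed reads, at 356, 448, 352, 219.9 and 331 against 272, 276, 306, 379 and 266 CPM (0.17 ± 0.20, adjusted p = 0.625). Its level was lower in cycling cells in mutant 4 and higher in the other 4, while its share of positive cells was higher in all 5.

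Part of the markers of the other classes fell, beside 5.13% lower over all tested genes. Of 10 valve markers 6 fell (median -0.53), of 10 collecting vessel markers 6 fell (median -1.56) of 9 tested capillary markers 5 fell (median -0.43) and of 5 intermediate markers 1 fell, Sdc1 (median -0.64), and no marker of these classes rose. Gja4, the connexin 37 gap junction protein of valves, was at 233, 193, 158, 166 and 31.7 CPM in cycling and 781, 753, 612, 384 and 257 CPM in non-cycling cells (-1.97 ± 0.23, adjusted p = 0.00211), with mutant 5 the lowest in both states. Foxc2, a transcription factor of valves, fell with a difference of -1.72 ± 0.24. Among collecting vessel markers Fgl2 was at 341 ± 156 against 1547 ± 354 CPM (-2.30 ± 0.18), and Foxp2 differed by -2.65 ± 0.35. Among capillary markers Timp3, a matrix-bound proteinase inhibitor, was at 1090 ± 166 against 2250 ± 319 CPM (-1.05 ± 0.06, adjusted p = 7.83e-05) and Reln, reelin, differed by -1.81 ± 0.28. Lyve1, the hyaluronan receptor (-0.02 ± 0.11, adjusted p = 0.934), and Pdpn, podoplanin (0.11 ± 0.07, adjusted p = 0.375), did not pass the test.

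Endothelial identity genes fell in 9 of 20 cases and rose in none (median -0.32), among them Tek, the TIE2 receptor of angiopoietins (-1.57 ± 0.16), Tie1 (-0.50 ± 0.06), Tbx1 (-1.15 ± 0.15) and the tight junction gene Cldn5 (-0.42 ± 0.06). Tie1 and Cldn5 differed by less than the spike-in ratio, Tbx1 by about its size and Tek by more. Of 13 tip cell genes 5 fell, including Dll4 (-2.61 ± 0.42) and Angpt2 (-1.31 ± 0.29), and 1 rose, Nid2, a basement membrane protein (0.43 ± 0.07). Of 14 shear and quiescence genes 5 fell and none rose. Of 16 interferon-stimulated genes 4 fell and none rose (median -1.83), with Ifit1 named above. Of 25 matrix genes 7 fell and 2 rose, Nid2 and Sparc (0.68 ± 0.07). Of 23 inflammatory mediators and proteinases 2 rose, Tnfaip3, an inhibitor of NF-κB (1.33 ± 0.23), and Adam8 (1.48 ± 0.31), and 2 fell, Icam1 (-1.59 ± 0.33) and the chemokine scavenger Ackr4 (-2.15 ± 0.45). Among 11 VEGF and neuropilin genes 1 rose, Plxnd1, a semaphorin receptor (0.74 ± 0.13). Among 15 junction genes 1 rose, Vcl, vinculin (0.50 ± 0.11), and 2 fell. The rises in the tip cell, matrix, inflammatory, VEGF and junction lists were near the 6.79% of all tested genes that were higher and are no result about those lists, and so were the falls of the inflammatory list beside the 5.13% of all that were lower. None of 18 immediate early genes, which tissue digestion can raise, was called (median -0.49).

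Markers of other cell types were read in the same sums. The 12 blood endothelial markers together took 923 to 1279 CPM in cycling and 1078 to 1121 CPM in non-cycling LECs. Of them 1 rose and 5 fell, beside 6.79% higher and 5.13% lower over all tested genes. The gene that rose was Cd34, an adhesion molecule that also led a Ptx3 capillary-like cluster, at 604, 626, 951, 851 and 1007 against 289, 331, 339, 466 and 529 CPM (1.05 ± 0.10, adjusted p = 0.000755). Keratinocyte markers took 30.3 to 829.6 CPM in cycling and 98.1 to 343 CPM in non-cycling sums, and none of 8 was called. Fibroblast markers took 11.4 to 84.7 against 23.9 to 141 CPM, mural markers 17.6 to 92.8 against 41.3 to 63.3 CPM and immune markers 1.34 to 76.4 against 6.67 to 34.9 CPM. None of 5 fibroblast and 5 mural markers and 1 of 5 immune markers, lower in cycling cells, was called. Schwann and neural markers took 40.8 to 138 against 19.1 to 56.4 CPM, with Ncam1 called higher (1.53 ± 0.32). No doublet caller was run, and the part of doublets in these levels was not tested.

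Since the Ptx3 capillary-like share differed between the states, the comparison was repeated within Ptx3 capillary-like cells, 115 cycling and 361 non-cycling. The class pools clusters with unlike shares of cycling cells, 59 of 163 in the Cd34-led and 46 of 271 in the Npnt-led cluster. The mix of clusters therefore differed between the states and was not held alike. Its part in the differences below was not tested. Fewer genes were called. Of 13412 genes 542 passed (4.04%), 392 higher (2.92%) and 150 lower (1.12%). Outside the cell cycle lists 180 of 12981 were higher (1.39%) and 150 lower (1.16%), together 2.54%, and the lists are incomplete here as above. The sums were smaller, 5663546 to 27317687 reads for cycling and 13970843 to 79552580 for non-cycling cells, and both comparisons share cells, so that their counts are set side by side with no test of the difference. The median over all tested genes was -0.10. DESeq2 called 1798 genes, 899 in each direction. With any 1 mouse left out, 16 of the 51 named genes called stayed called, among them Mns1, Lmnb2, Cdk5rap2, Prr11, Lockd, Gria2, Psat1, Hsp90aa1, Cdkn2b, Gja4, Nrp2 and Timp3. The calls of Slc7a5, Cdkn1a, Wdr12, Pgam1, Aldoa, Ddit4, Pik3r3, Sox4, Arhgap19 and Mmrn2 ended whichever of the 5 mice was left out. Those of Ackr2, Nhp2, Traip, Fgl2, Sesn1, Ccnd2, Neurl1b, Osr1, Tpi1, Txnip, Ncl and Ccl21a ended without each of 2 to 4 mice, and those of Gja1 and Btg1 without mutant 3. In the 2 mice with enough cells that held under 50 CPM of the BEC genes of the rule, 28 genes were called, all higher. Of the named genes called within the class, Gja4, Nhp2 and Ddit4 changed sign there.

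Mns1, a coiled-coil protein of nucleus and cilium, was at 74.9 ± 16.3 against 4.28 ± 2.46 CPM (4.33 ± 0.49, adjusted p = 0.00261). Lmnb2, a B-type lamin of the nuclear envelope, was at 178, 183, 94.9, 89.7 and 112 CPM in cycling and 21.2, 18.6, 11.3, 11.8 and 15.7 CPM in non-cycling cells of mutants 1 to 5, with no overlap and a difference of 3.04 ± 0.19 (adjusted p = 0.000184). Cdk5rap2, a centrosome protein, rose by 3.09 ± 0.34 and Traip, a ubiquitin ligase of the replication machinery, by 3.48 ± 0.76. Prr11 (5.76 ± 0.82), Lockd (4.41 ± 0.53), Neurl1b (5.13 ± 1.00), Arhgap19 (3.41 ± 0.75), Ankle1 and BC030867 were again among the 10 largest. Of the largest falls, Gria2, a glutamate receptor subunit, was at 26.9 ± 13.9 against 114 ± 33.7 CPM (-2.20 ± 0.26) and Sox4, a transcription factor, differed by -2.18 ± 0.47. Osr1, another transcription factor, differed by -3.27 ± 0.55. Thrsp, Ifit1, Myl9, Il16, Adgrl2, Tmem50b and Tmem150a were the others.

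Growth genes gave fewer calls within the class, where 2.92% of all tested genes were higher and 1.12% lower. Psat1 was at 307, 364, 315, 194 and 165 against 146, 193, 128, 113 and 96.0 CPM, higher in all 5 mice, where the highest non-cycling values overlapped the lowest cycling values, a difference of 0.97 ± 0.12 (adjusted p = 0.00365). Slc7a5 was at 21.7, 38.7, 21.4, 35.5 and 17.4 against 4.56, 4.29, 4.75, 2.82 and 6.4 CPM (2.53 ± 0.52, adjusted p = 0.0373), with no overlap and with a read in 49 of the 115 cycling and 51 of the 361 non-cycling cells. These were the genes of amino acid supply that rose, 2 of 26 tested, and Ddit4 fell (-1.03 ± 0.22). Glycolytic genes rose for 2 of 20, Tpi1 (0.66 ± 0.12) and Pgam1 (0.45 ± 0.09), and fell for 1, Aldoa (-0.31 ± 0.07). Chaperones rose for 4 of 25, with Hsp90aa1 at 0.86 ± 0.10 (adjusted p = 0.00355), and ribosome biogenesis genes for 3 of 54, Ncl (0.47 ± 0.07), Nhp2 (0.81 ± 0.14) and Wdr12 (0.98 ± 0.20). None of 29 nucleotide, 31 sterol, 58 oxidative phosphorylation, 76 ribosomal protein and 7 pentose phosphate genes was called by edgeR within the class, where the list medians were 0.23, 0.32, 0.20, 0.14 and 0.00. On simulated counts the comparison within the class recovered 17 of 98 genes changed 2-fold and 35 of 96 changed 4-fold. A list without calls may therefore still differ.

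The FOXO and PI3K feedback genes stayed lower in part, 4 of 27 tested, with none higher (median -0.58). Over all genes tested within the class 1.12% were lower. Btg1 was at 66.5, 85.0, 84.0, 104 and 68.7 CPM in cycling and 216, 195, 224, 166 and 127 CPM in non-cycling cells (-1.17 ± 0.18, adjusted p = 0.0101), with no overlap. Sesn1 was at 32.0, 22.7, 20.2, 55.6 and 26.6 against 218, 107, 150.2, 117 and 60.7 CPM (-2.03 ± 0.33, adjusted p = 0.014), also with no overlap. Txnip differed by -0.51 ± 0.08 (adjusted p = 0.0134) and Pik3r3, a regulatory subunit of PI3K, by -1.89 ± 0.36. Of 11 G1 genes 3 fell and none rose. Ccnd2 was at 170.4, 105, 139, 33.3 and 111 against 322, 343, 359, 327 and 293 CPM (-1.70 ± 0.31, adjusted p = 0.023), lower in every mouse and lowest in mutant 4. Cdkn1a (p21) was at 242, 269.9, 258, 277 and 368 against 452, 375, 347, 386 and 487 CPM (-0.54 ± 0.10, adjusted p = 0.0245). Cdkn2b was at 0.101 CPM in cycling cells, with 2 mice at 0, and at 8.05 CPM in non-cycling cells. A Cdkn2b read was found in 8 of the 115 cycling and 25 of the 361 non-cycling cells, 6.96 and 6.93%, so that few cells carried its level in both states.

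The connexins went in opposite directions within the class. Gja1, connexin 43, was at 167, 175, 203, 279 and 209.5 CPM in cycling and 73.6, 117, 77.3, 93.1 and 112 CPM in non-cycling cells, higher in 5 of 5 mice with no overlap (1.13 ± 0.17, adjusted p = 0.00994). Gja4 was at 126, 55.2, 105, 45.8 and 23.5 against 646, 242, 274, 117 and 141 CPM, lower in 5 of 5 mice though the states overlapped between mice (-1.96 ± 0.22, adjusted p = 0.00229). Over all LECs Gja1 was not called and lay the other way, at 207 against 257 CPM (-0.30 ± 0.12, adjusted p = 0.163). Both genes are on the valve list, of which no other member was called. Of the 10 Ptx3 capillary markers 2 fell and none rose within the class (median -0.25), beside 1.12% lower over all tested genes. Nrp2, a co-receptor of VEGF-C, was at 956, 1188, 1041, 1048 and 770.5 against 1458, 1651, 1607, 1534 and 1069 CPM (-0.55 ± 0.06, adjusted p = 0.00142), and Ackr2, a chemokine scavenger, differed by -0.41 ± 0.07. Ptx3 was lower in every mouse, at 443, 693, 416, 275 and 330.5 against 787, 785, 719, 788 and 458 CPM, with a difference of -0.76 ± 0.17 that missed the threshold (adjusted p = 0.0558). Among non-cycling cells Ptx3 was also lower in the Cd34-led than in the Npnt-led cluster, as given above. Mrc1 (0.80, adjusted p = 0.0718), Mest (0.59, adjusted p = 0.126) and Aqp1 (0.11, adjusted p = 0.62) did not pass. Timp3 (-0.90 ± 0.10, adjusted p = 0.00199) and Ccl21a, the chemokine that guides dendritic cells (-0.43 ± 0.07), were the 2 called of 9 capillary markers, both lower, and Fgl2 and Mmrn2 the 2 of 10 collecting vessel markers, both lower. None of 12 blood endothelial, 6 keratinocyte, 3 fibroblast, 3 mural and 2 immune markers tested was called within the class.

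**Figure D5:**
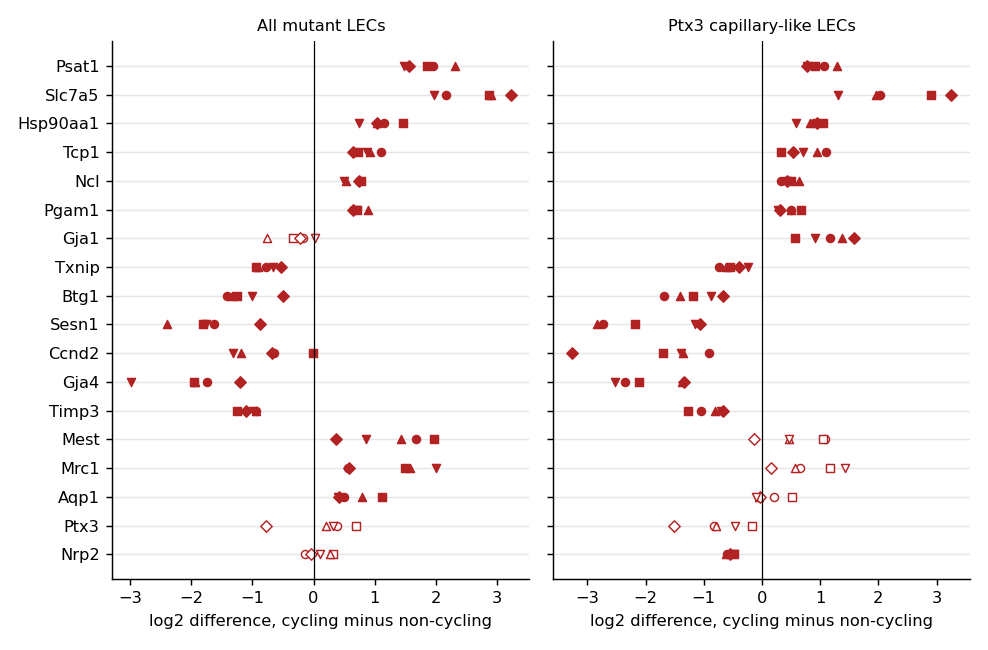
Log2 difference of cycling minus non-cycling LECs, from CPM + 1, for named genes in each of the 5 mutant mice (circle, square, upward triangle, diamond and downward triangle for mutants 1 to 5), over all LECs and within the Ptx3 capillary-like class, filled where the gene was called. Psat1 and Slc7a5 lie right of 0 and Txnip, Sesn1 and Gja4 left of 0 in all 5 mice in both panels, while Gja1 lies right of 0 in all 5 within the class only.

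The same contrast in BECs was set beside that of the LECs in mutants 1, 2, 3 and 5, since mutant 4 had 3 cycling BECs. The difference of the LEC and BEC contrasts was called for 0 of 17508 genes by edgeR (0.0%), with 1368 at an unadjusted p under 0.05 and 421 called by DESeq2. On simulated counts this comparison recovered 0 of 96 genes changed 2-fold and 12 of 98 changed 4-fold. Since most changes of that size were missed, 0 calls do not show that the contrasts are alike. For Psat1 and Txnip the mean levels differed in the same direction in both cell types. Psat1 was at 256 ± 65.8 in cycling and 68.9 ± 15.2 CPM in non-cycling LECs and at 154 ± 39.6 and 34.2 ± 14.6 CPM in BECs (mean ± SD, n = 4 mice). Txnip was at 977 ± 112 and 1800 ± 377 CPM in LECs and 988 ± 86.3 and 1890 ± 255 CPM in BECs, lower in the cycling cells of both types in these means. Aqp1 was higher in cycling LECs, 715 ± 166 against 443 ± 21.6 CPM, and lower in cycling BECs, 1044 ± 499 against 2669 ± 401 CPM, a difference between the contrasts of 2.12 ± 0.43 that was not called (adjusted p = 0.144). Cd34 was at 766 ± 206 against 367 ± 99.9 CPM in LECs and 1443 ± 334 against 1688 ± 240.3 CPM in BECs, with a difference of 1.32 ± 0.28 (adjusted p = 0.154). Reads of LEC genes in BECs were not alike. Lyve1 was at 317 ± 233 CPM in cycling and 59.3 ± 42.5 CPM in non-cycling BECs, higher in 4 of 4 mice, while Ptx3, at 82.3 ± 156 against 4.53 ± 3.27 CPM, and Ccl21a, at 116 ± 67.4 against 127 ± 115 CPM, were higher in 2 of 4. The part of these reads in the comparison was not tested.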

How the data were processed

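Single cells were sorted into 384-well plates, 1 plate or a pair per mouse, and sequenced by Smart-Seq2. The deposited values are raw counts of reads per gene and well with spike-in rows (46609 genes, 92 ERCC spike-ins), which the authors made with TopHat2 (2.1.1) on GRCm38 with an added chicken PIK3CA sequence, duplicate removal with SAMtools (0.1.18) and featureCounts from Subread. Strand was not given in the sources used here, so genes that overlap on opposite strands cannot be told apart. Duplicates had been removed by position, without molecular identifiers. For positions and names, 46005 genes were matched to GENCODE vM21. Control 3 was not analysed here.

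Wells with at least 50000 gene reads and 200 genes and at most 10% mitochondrial reads were kept. LECs, BECs and cycling cells were set by the sums of CPM given in the report, and BECs by Flt1, Emcn and Podxl in turn. The members and the gene lists were chosen with earlier results of these data known. Counts were summed per mouse and state (at least 5 cells a sum) and tested with edgeR 4.0.16 (R 4.3.3; TMM, filterByExpr, quasi-likelihood F test, Benjamini-Hochberg over all tested genes, threshold 0.05) with mouse as a block, since both states came from the same animals. Deviations from the state means correlated most with the same mouse in all 5 (r = 0.207, 0.129, 0.0373, 0.102 and 0.414 over 10492 genes). Shares, ratios and genes per cell were tested over mice by exact two-sided permutation or sign-flip tests, for which 5 pairs allow no p under 0.0625 and 5 against 2 mice none under 0.0952. The scripts were tested on simulated counts with 2-fold and 4-fold changes, of which the comparison over all LECs recovered 22 of 98 and 46 of 93. Non-cycling mutant LECs were clustered with leidenalg 0.10.2 on 2000 variable genes outside the cell cycle lists and the rule genes. Settings were plate means subtracted, 30 components, 20 neighbours and Leiden resolution 1.0. Named genes were, for each comparison, the 10 called genes with the largest change in each direction (mean log2 CPM of at least 3, same direction in every mouse, outside the cell cycle lists, no predicted genes), up to 4 called members of each list in each direction, the subtype markers, and examples from the cell cycle lists. A few genes that this rule names are not reported here. Connexin and cluster comparisons were singled out after their values were seen. Motifs were searched in RefSeq promoters.

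The alternatives were DESeq2 1.42.0, other size factors, no filter on low counts, no block, thinned or equal numbers of cells, other limits for cycling and LEC calls, other clusterings, cells with few BEC or keratin reads, first plates only and leaving out each mouse. Leaving out cells with Flt1 or keratin reads, clustering without the subtype markers and comparing Ptx3 capillary-like LECs with BECs were added after seeing the data. The mice are separate animals, and sexes within groups were not analysed.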

Additional observations from a re-analysis of the deposited data

Results flagged for a closer look

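For 166 values of the 5 mutant mice, the gap between the mouse at the end of the range and its neighbour was compared with the range (Dixon's test, critical value 0.71), and 9 mice stood apart, where chance gives about 1 in 20. Over all LECs the log2 differences of cycling minus non-cycling cells that stood apart were Pgam1 at 0.887, Ldha at 0.393, Sqle at 0.125, Ccl21a at -0.815, Thbd at 0.116 and Tnfaip3 at 1.88. Within the Ptx3 capillary-like class they were Traip at 5.63, Cdk5rap2 at 1.78 and Cdkn1a at -0.9. Each is the value of 1 mouse set against the other 4, on log2 of CPM + 1. The cause was not tested.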

How the results depend on the processing

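The measures per cell kept their direction under the alternatives run. Leaving out 1 mouse at a time gave 9.39 to 11.2 points for the share of cycling LECs, 37.8 to 43.3 points for the Ptx3 capillary-like share, 19.9 to 23.3 points for the Ptx3-positive share, 0.90 to 1.06 for the log2 spike-in ratio and 957 to 1196 genes detected. Over all LECs the count of called genes was 1861. It was 4025 by DESeq2, 663 with equal cell numbers and 15 among cells with BEC genes under 50 CPM, where mutants 1 and 4 had too few cells. Without 1 mouse it was 1085 to 1328, with 1157 without mutant 1, 1165 without mutant 3 and 1085 without mutant 5. Within the Ptx3 capillary-like class it was 542, and 1798 by DESeq2, 263 with equal cell numbers, 28 among cells with BEC genes under 50 CPM, where mutants 1, 2 and 4 had too few cells, and 276 to 349 without 1 mouse, at 326, 349, 276, 343 and 315 without mutants 1 to 5. The share of calls that were higher was 57.0% and 46.1% by DESeq2 over all LECs and 72.3% and 50.0% within the class. For the difference between LECs and BECs the count was 0, and 421 by DESeq2, 2 with Ptx3 capillary-like LECs (Slc26a10 and Espl1, an alternative chosen after seeing the data) and 0 to 2 without 1 mouse. Without the replicate block the counts were 1676, 557 and 4. Without the block 30 values of named genes lost their call and 1 gained one, and no value with a call in either fit changed sign. With BEC genes under 50 CPM, 7 values with a call in either fit changed sign. Over all LECs they were Ddit4 at 0.009, Stard4 at -1.08, Tnfaip3 at -0.388 and Vcl at -0.16. Within the class they were Ddit4 at 0.014, Gja4 at 1.29 and Nhp2 at -0.058. Of the values of named genes under the alternatives, 2164 kept their side of the threshold, 524 lost their call and 31 gained a call. The 2164 can include sign changes of values not called in either fit. A further 7, with a call in either fit, changed sign. The cause of these changes was not tested. The depth of the smaller sums, the 17 cycling cells of mutant 4 and the 8 cycling cells of the controls limit what could be detected.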
